A study of Mus musculus with 4 samples.

Results

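Transcript levels of the factors that answer to low oxygen, of the enzymes that control them and of direct response genes were examined in 4 mouse lung tumours. The 10 genes, Hif1a, Epas1, Arnt, Egln1, Egln3, Vhl, Car9, Bnip3, Ndrg1 and Adm, were taken by symbol from a count table of 39017 genes, and each matched 1 row. All 10 had a mean of at least 1 CPM (counts scaled to 1000000 per effective library) and were among the 14225 genes tested.

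The 4 tumours formed 1 group, called Control, of male mice on a C57BL/6 background, with 1 library per tumour and no comparison group. The mice were KP mice, which carry floxed p53 alleles (p53Fl/Fl) together with a driver allele that Cre switches on, and each received 1500 viral units of lenti.PGK-Cre into the lungs, a virus in which the PGK promoter, active in most cell types, drives Cre. Tumours were taken 22 weeks and 5 days later, dissected by hand and broken up to single cells, and 500 ng of total RNA from each went into a library of polyadenylated RNA. The genotype label reads heterozygous fl/wt without a gene, the column names of the deposited log2 table say WT, and by the methods a control had either no floxed Slc2a1 allele or 1, so the state of that locus was not settled. The age of the mice was not given in the labels, and no label says whether the tumours came from separate mice, so p-values measure only the spread between these samples.

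Cells sense oxygen through a short chain of proteins. Prolyl hydroxylases such as those encoded by Egln1 and Egln3 use oxygen to modify the alpha subunits encoded by Hif1a and Epas1, the Vhl protein then binds the modified subunits, and they are degraded. When oxygen is short the alpha subunits persist, pair with the Arnt protein and raise transcription of genes for pH control, glycolysis, mitophagy and vessel growth, and Egln3 is itself such a target. This control acts on protein, so transcript levels of the alpha subunits do not measure their activity. In lung, Epas1 is known from endothelium and alveolar type 2 cells.

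Total counts lay between 8151613 and 8799007, and 3 counts, the limit that a count of 0 allows, corresponded to 0.330 to 0.370 CPM. Lung epithelial identity was present, with 9 of 9 alveolar type 2 markers tested and a summed level of 33007 CPM in tumour 1 and 53419 to 61110 CPM in the others. In bulk tumours, fewer cells of a type and less RNA per cell cannot be told apart.

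Per kilobase of merged exons, Bnip3 had the highest level of the 10 genes, followed by Hif1a and Epas1, and Car9 and Adm were far below the rest. Mean levels were 94.9 ± 20.3 CPM per kilobase for Bnip3, 62.4 ± 13.8 for Hif1a, 44.3 ± 6.18 for Epas1, 31.3 ± 14.4 for Ndrg1 and 29.3 ± 5.88 for Egln1 (SD, n = 4). Next came Vhl with 16.8 ± 2.05, Egln3 with 15.9 ± 5.32 and Arnt with 12.0 ± 1.69 CPM per kilobase, whereas Car9 had 1.10 ± 0.858 and Adm 0.837 ± 0.446 (SD, n = 4). Of the 9 neighbouring pairs in this order, 4 kept it in 4 of 4 tumours, namely Bnip3 above Hif1a, Hif1a above Epas1, Egln1 above Vhl and Arnt above Car9. The mean log2 differences of these pairs were 0.61 ± 0.20, 0.48 ± 0.43, 0.78 ± 0.12 and 3.74 ± 1.26 (SD, n = 4), and by exact permutation of signs within tumours (two-sided) each gave p 0.125, the lowest value possible here, or 0.281 adjusted over the 9 pairs. The remaining neighbours, Epas1 and Ndrg1, Ndrg1 and Egln1, Vhl and Egln3, Egln3 and Arnt, and Car9 and Adm, did not keep 1 order in all 4 tumours, so they did not differ beyond their spread. With the longest annotated transcript as the length, Ndrg1 moved above Epas1 and Arnt above Vhl and Egln3. Leaving out tumour 1 moved Egln1 above Ndrg1 and Adm above Car9, and leaving out tumour 2 moved Adm above Car9. Leaving out tumour 4 moved Egln1 above Ndrg1 and Egln3 above Vhl.

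**Figure D1:**
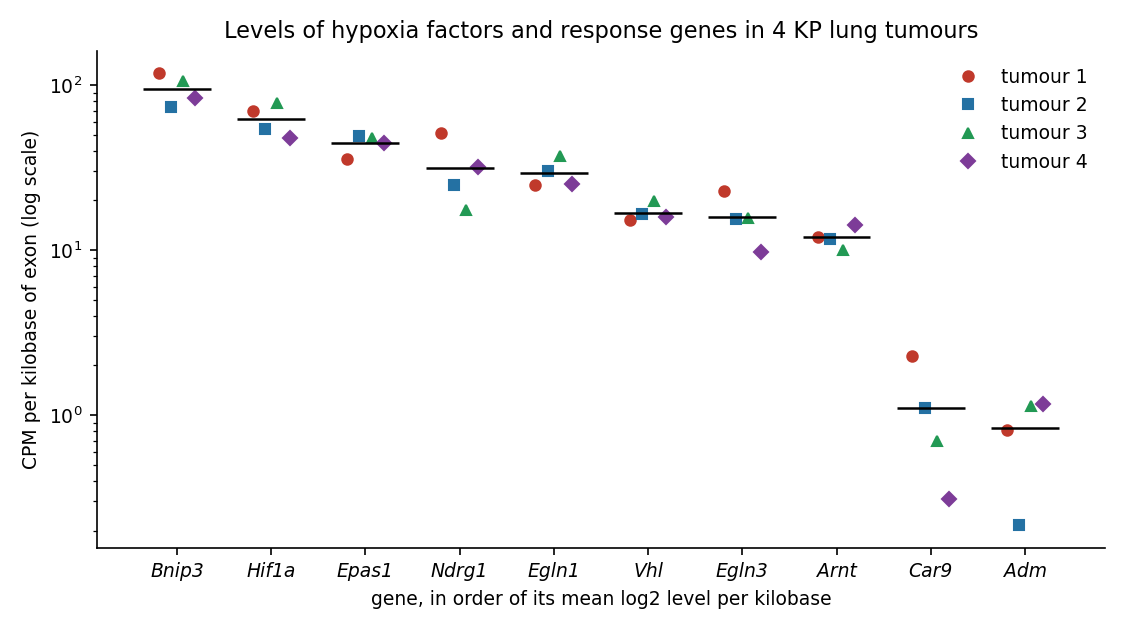
Level of each gene in CPM per kilobase of merged exons on a log axis, with a point for each of the 4 tumours and a line at the mean. Bnip3, with a mean of 94.9, and Hif1a, with 62.4, lead, and Car9 and Adm have means of 1.10 and 0.837.

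Hif1a and Epas1 encode the oxygen-controlled alpha subunits. Hif1a (ENSMUSG00000021109) is protein-coding, as are the others, and spans chr12:73901375-73947530 (GRCm38, plus strand) with 15 exons in its longest transcript. From 2361 to 3737 counts per tumour, Hif1a had 411, 321, 459 and 281 CPM in order of tumour (mean 368 ± 81.4, SD, n = 4). Tumours 1 and 3 were the higher pair, and the highest value was 1.63 times the lowest. Epas1 (ENSMUSG00000024140) spans chr17:86753700-86833410 (plus strand) with 16 exons. Its values were 199, 276, 268 and 248 CPM (mean 248 ± 34.5, SD, n = 4), lowest in tumour 1 and within a narrow range in the others. Tumour 1 was also lowest for the summed alveolar type 2 markers given above, whose part in the Epas1 level was not tested. Of these markers, Sftpb and Abca3 were instead lowest in tumour 3, with 6601 and 759 CPM against 8261 and 876 CPM in tumour 1.

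Per kilobase, Hif1a was above Epas1 in 4 of 4 tumours. Epas1 minus Hif1a gave log2 differences of -0.97, -0.14, -0.70 and -0.10 (mean -0.48 ± 0.43, SD, n = 4), a mean ratio of Hif1a to Epas1 of 1.39, with p 0.125 by exact permutation of signs (two-sided), the lowest possible. The genes were close in tumours 2 and 4 and apart in tumours 1 and 3. Hif3a, the remaining alpha subunit gene, had 8.10, 3.72, 1.47 and 4.68 CPM per kilobase. Of the summed level of the 3 alpha subunit genes per kilobase, Hif1a made up 55.6% ± 6.61, Epas1 40.2% ± 7.06 and Hif3a 4.15% ± 2.51 (SD, n = 4).

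Arnt (ENSMUSG00000015522), the partner that the alpha subunits need to bind DNA, spans chr3:95434388-95497240 (plus strand) with 21 exons. It had 96.1, 93.9, 80.3 and 113 CPM (mean 95.9 ± 13.6, SD, n = 4), highest in tumour 4 and lowest in tumour 3. Per kilobase, Hif1a was 5.81, 4.64, 7.75 and 3.36 times Arnt in tumours 1 to 4, and Epas1 was 2.97, 4.22, 4.77 and 3.14 times Arnt. Arnt has a merged exon length of 8007 nt and a longest transcript of 4325 nt, and with longest transcripts as the lengths, an alternative chosen after the data were seen, the ratios to Arnt were 2.27 to 5.22 for Hif1a and 1.63 to 2.61 for Epas1. Hif1a and Epas1 were thus above Arnt in every tumour by either length, whereas Hif3a was below Arnt in every tumour per kilobase of merged exons. Arnt2, a related partner gene, was at 0.238 to 0.550 CPM, below the filter of 1 CPM.

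Vhl, Egln1 and Egln3 act on the alpha subunits, and of these Egln3 varied most. Vhl (ENSMUSG00000033933) spans chr6:113623959-113631633 (plus strand) with 3 exons. It had 45.6, 49.7, 59.4 and 47.3 CPM (mean 50.5 ± 6.15, SD, n = 4), with tumour 3 above the others, and its SD of log2 CPM, 0.17, was the smallest of the 10 genes. Egln1 (ENSMUSG00000031987), which encodes the main oxygen sensor among the hydroxylases, spans chr8:124908587-124949324 (minus strand) with 5 exons. It had 88.8, 108, 134 and 89.8 CPM (mean 105 ± 21.1, SD, n = 4), likewise highest in tumour 3.

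Egln3 (ENSMUSG00000035105), a hydroxylase gene that the factors induce, spans chr12:54178981-54203860 (minus strand) with 5 exons. It had 60.6, 41.2, 41.8 and 26.0 CPM (mean 42.4 ± 14.2, SD, n = 4), 2.33 times as high in tumour 1 as in tumour 4. Egln3 and Egln1 thus differed in the tumour where each was highest. Per kilobase, the log2 difference of Egln3 minus Egln1 was -0.12, -0.96, -1.24 and -1.35 (mean -0.92 ± 0.56, SD, n = 4), negative in 4 of 4 tumours, with p 0.125 by the same exact permutation, the lowest possible. The levels were nearly equal in tumour 1. With Egln2, the third hydroxylase gene, as part of the sum, Egln1 made up 49.9% ± 7.57, Egln3 26.8% ± 6.77 and Egln2 23.3% ± 3.78 of the level per kilobase (SD, n = 4). The share of Egln3 was 36.2, 26.4, 24.1 and 20.4% in tumours 1 to 4.

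Among the response genes, Bnip3 and Ndrg1 were abundant and Car9 and Adm scarce. Bnip3 (ENSMUSG00000078566), whose product marks mitochondria for mitophagy, spans chr7:138890836-138909519 (minus strand) with 6 exons. Its values were 267, 166, 239 and 188 CPM (mean 215 ± 46.0, SD, n = 4), with tumours 1 and 3 above tumours 2 and 4, the same higher pair as for Hif1a. In 5 other annotated genes a stretch of 80 nt or longer matched Bnip3 with an identity of 97% or higher, and 1 of them, Gm16439, is in the count table, at 2.02 to 3.74 CPM, so the Bnip3 count is uncertain. Ndrg1 (ENSMUSG00000005125), a gene long known to rise in hypoxia and in differentiating cells, spans chr15:66929318-66969640 (minus strand) with 13 exons. It had 337, 163, 116 and 211 CPM (mean 207 ± 95.3, SD, n = 4). Tumour 1 was highest and tumour 3 lowest, a 2.91-fold range from 940 to 3066 counts, and Hif1a was highest in that same tumour 3.

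Car9 (ENSMUSG00000028463) encodes carbonic anhydrase 9, a cell surface enzyme that is a widely used marker of hypoxia, and spans chr4:43506966-43513729 (plus strand) with 11 exons. Its counts were 48, 22, 13 and 6, or 5.28, 2.56, 1.60 and 0.714 CPM (mean 2.54 ± 1.98, SD, n = 4), highest in tumour 1 and lowest in tumour 4. The lower 95% exact Poisson bound of tumour 1, 3.89 CPM, was just above the upper bound of tumour 2, 3.87 CPM, and above those of tumours 3 and 4, 2.74 and 1.55 CPM. The ratio of tumour 1 to tumour 4 was 7.40 (95% counting interval 3.16 to 21.2). Car9 overlaps the antisense gene Gm12454 over 214 nt of exon, which had 1.65, 2.56, 1.97 and 3.09 CPM, and whether counting used strand was not given in the sources used here. With the counts of Gm12454 added, an alternative chosen after the data were seen, the values were 6.93, 5.11, 3.58 and 3.81 CPM, and the highest was 1.94 times the lowest.

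Adm (ENSMUSG00000030790) encodes adrenomedullin, a secreted peptide that widens vessels, and spans chr7:110627661-110629820 (plus strand) with 4 exons. It was the scarcest of the 10 genes, with 12, 3, 15 and 16 counts, or 1.32, 0.348, 1.85 and 1.90 CPM (mean 1.36 ± 0.721, SD, n = 4). Tumour 2 stood at 3 counts, and its counting interval (0.0719 to 1.02 CPM) overlapped that of tumour 1 (0.682 to 2.31 CPM) and ended just below those of tumours 3 and 4 (from 1.04 and 1.09 CPM). The ratio of tumour 4 to tumour 2 was 5.46 (95% counting interval 1.56 to 29.2). Counting intervals cover counting error only, since the reads carried no molecular identifiers.

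Promoter windows of RefSeq (GRCm38.p6, 250 bases before to 50 after the annotated start) were found for 8 of the 10 genes, not for Epas1 and Ndrg1, and were searched on both strands for the core of the hypoxia response element, ACGTG or GCGTG. Of these 8 windows, 7 held at least 1 match, those of Hif1a, Arnt, Egln1, Egln3, Car9, Bnip3 and Adm, and the core was found in 43.8% of all 32851 windows. ACGTG alone was in 19.6% of all windows and in those of Hif1a, Egln1, Egln3, Car9 and Bnip3. The windows of the response genes and of the hydroxylase genes are printed below in the direction of the gene, with matches on either strand in capitals, because these are the genes the factors are known to act on.
Bnip3, chr7:138909457-138909756, minus strand: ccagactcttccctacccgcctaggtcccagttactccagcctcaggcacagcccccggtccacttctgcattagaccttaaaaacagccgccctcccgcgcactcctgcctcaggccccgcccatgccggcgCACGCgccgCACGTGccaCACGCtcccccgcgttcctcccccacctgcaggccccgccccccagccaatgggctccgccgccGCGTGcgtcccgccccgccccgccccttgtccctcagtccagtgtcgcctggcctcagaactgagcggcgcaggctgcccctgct
Car9, chr4:43506776-43507075, plus strand: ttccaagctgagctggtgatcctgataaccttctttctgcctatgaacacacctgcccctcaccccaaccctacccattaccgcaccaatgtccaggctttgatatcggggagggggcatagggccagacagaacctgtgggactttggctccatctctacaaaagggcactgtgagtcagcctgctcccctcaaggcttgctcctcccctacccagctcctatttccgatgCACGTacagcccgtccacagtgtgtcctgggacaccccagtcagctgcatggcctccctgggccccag
Egln3, chr12:54203825-54204124, minus strand: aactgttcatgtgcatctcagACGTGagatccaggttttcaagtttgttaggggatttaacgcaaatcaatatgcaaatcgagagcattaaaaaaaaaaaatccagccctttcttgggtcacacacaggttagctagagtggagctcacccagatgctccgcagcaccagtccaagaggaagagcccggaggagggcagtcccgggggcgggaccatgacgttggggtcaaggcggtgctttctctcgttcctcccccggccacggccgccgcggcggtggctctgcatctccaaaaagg
Egln1, chr8:124949205-124949504, minus strand: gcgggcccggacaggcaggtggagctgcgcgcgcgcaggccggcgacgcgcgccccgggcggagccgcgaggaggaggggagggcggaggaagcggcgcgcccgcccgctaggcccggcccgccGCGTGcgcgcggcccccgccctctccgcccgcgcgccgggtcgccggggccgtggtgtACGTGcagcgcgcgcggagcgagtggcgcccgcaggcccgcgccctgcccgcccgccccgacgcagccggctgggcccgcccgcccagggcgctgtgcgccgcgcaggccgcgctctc
Adm, chr7:110627407-110627706, plus strand: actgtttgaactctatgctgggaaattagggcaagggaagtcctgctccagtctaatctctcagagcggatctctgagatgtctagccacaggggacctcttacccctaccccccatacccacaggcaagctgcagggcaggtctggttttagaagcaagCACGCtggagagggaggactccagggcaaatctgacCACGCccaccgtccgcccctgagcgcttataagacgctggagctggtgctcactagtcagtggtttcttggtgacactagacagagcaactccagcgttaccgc
Bnip3 had the most matches, 5, of which 2 were ACGTG on opposite strands that overlap, with first bases 108 and 107 bases before the start (-108 and -107). Car9 had a single ACGTG on the minus strand at -18, and Egln3 a single one at -229, far from its start. Egln1 had GCGTG at -126 and ACGTG at -68, and Adm had GCGTG on the minus strand at -90 and -54. The Hif1a window belongs to a start inside the annotated gene, at chr12:73907617-73907916. A match is a run of letters and does not show that a factor bound there.

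Spread between tumours was the other measurement that a single group allows. All 10 genes varied beyond counting noise (chi-square test of the 4 counts with 3 degrees of freedom, Benjamini-Hochberg over 14225 genes), but so did 76.7% of all genes tested. Adjusted p-values ran from 8.25e-244 for Ndrg1 to 5.22e-04 for Vhl and 0.0272 for Adm. Without tumour 2 the call of Adm was lost (adjusted p 0.620), and without tumour 3 that of Vhl (adjusted p 0.509). The SD of log2 CPM was 1.17 for Car9, 1.07 for Adm, 0.65 for Ndrg1, 0.50 for Egln3, 0.32 for Hif1a and 0.31 for Bnip3. It was 0.28 for Egln1, 0.21 for Epas1, 0.20 for Arnt and 0.17 for Vhl, and the median was 0.32 over the 10 genes and 0.29 over all genes tested. Larger SDs than that of Car9 were found in 4.18% of genes tested, and the figure was 5.20% for Adm, 14.5% for Ndrg1, 23.1% for Egln3 and 78.7% for Vhl. It was 67.9% for Epas1, 70.2% for Arnt, 53.1% for Egln1, 46.6% for Bnip3 and 44.1% for Hif1a. By this SD, Vhl, Arnt and Epas1 were thus steadier than most genes, and Egln1, Bnip3 and Hif1a lay near the middle. Car9 and Adm were among the most variable by SD, which includes counting error at their 6 to 48 and 3 to 16 counts per tumour. After counting error was subtracted, Adm was below Ndrg1, as given below. With the counts of Gm12454 added, the range of Car9 was 1.94-fold.

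**Figure D2:**
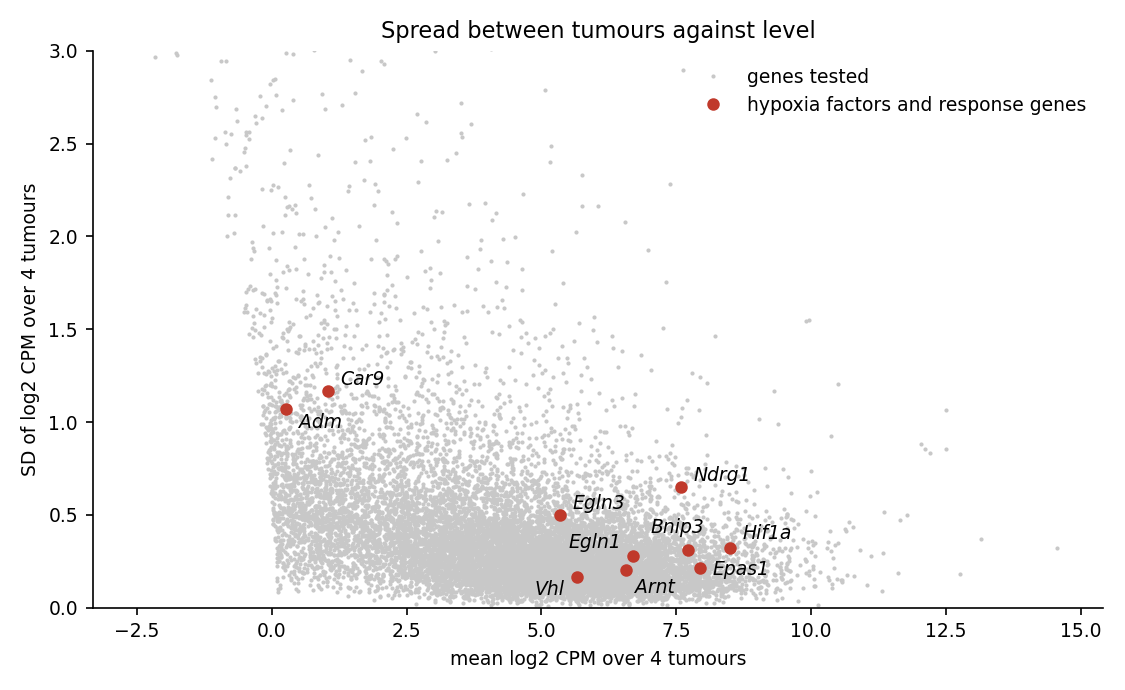
SD of log2 CPM over the 4 tumours against mean log2 CPM for the 14225 genes tested (grey) and the 10 genes of interest (red). Car9 and Adm lie at the left with SDs of 1.17 and 1.07, Ndrg1 with 0.65 is the most variable of the other 8, and 62 genes with an SD above 3 are outside the axis.

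After counting error was subtracted, the coefficient of variation between tumours was 74.9% for Car9, 46.0% for Ndrg1, 44.3% for Adm and 33.0% for Egln3. It was 22.1% for Hif1a, 21.3% for Bnip3, 13.8% for Epas1 and 13.7% for Arnt, and the regulators Vhl and Egln1 had 11.2% and 19.8%. The median over all genes tested was 17.9%. A highest tumour at least 2 times the lowest was found for 4 of the 10 genes, Car9, Adm, Ndrg1 and Egln3, against 28.5% of all genes tested. This number fell to 2, Car9 and Adm, without tumour 1, and to 3 without tumour 2 or 4 or with overlapping and near-identical genes added. None of the 10 genes had 1 tumour apart from the other 3 by Dixon's ratio, which 5.86% of all genes passed.

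The 10 genes did not peak in the same tumour. Egln3, Bnip3, Ndrg1 and Car9 were highest in tumour 1, which holds the maximum of 31.4% of all genes tested. Hif1a, Vhl and Egln1 were highest in tumour 3 (30.1% of all genes), Arnt and Adm in tumour 4 (18%) and Epas1 in tumour 2 (20.4%). Egln3 and Car9 were lowest in tumour 4, Bnip3 and Adm in tumour 2 and Ndrg1 in tumour 3. Epas1, Egln1 and Vhl were lowest in tumour 1, Arnt in tumour 3 and Hif1a in tumour 4. Over all genes tested, the minimum was in tumour 1 for 30.3%, in tumour 2 for 19.4%, in tumour 3 for 32.6% and in tumour 4 for 17.7%.

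**Figure D3:**
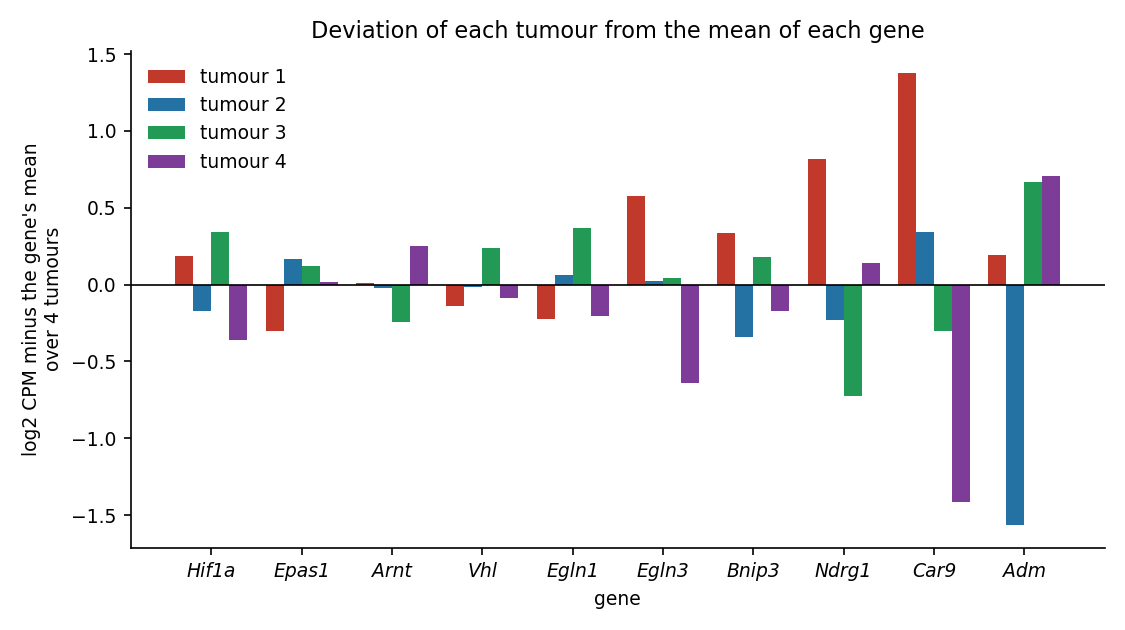
Deviation of log2 CPM in each tumour from the mean of that gene over the 4 tumours, shown as bars from 0. Tumour 1 bars are the highest for Egln3, Bnip3, Ndrg1 and Car9, whose SDs were 0.50, 0.31, 0.65 and 1.17, and the lowest for Epas1.

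Other genes of the pathway were described from lists, beside the 76.7% of all genes tested that varied beyond counting noise and the 28.5% with a 2-fold range. Of 11 further HIF subunits and regulators, 10 passed the filter, 10 varied beyond counting noise and 3 had a 2-fold range, with a median SD of log2 CPM of 0.21. Hif3a, whose levels per kilobase are given above, varied most in this list, with an SD of log2 CPM of 1.02. Its tumours stood in the same order as those of Ndrg1, from tumour 1 over tumours 4 and 2 to tumour 3. The response gene Angptl4 had this order too. Egln2 had it only by a small margin, with 37.2 CPM in tumour 4, 36.6 CPM in tumour 2 and a 1.27-fold range. This order was noticed after the values were seen, and the share of all genes with it was not counted. Tceb1, also called Eloc, encodes elongin C of the ligase that contains Vhl, and was steadiest, with 57.5, 54.5, 66.0 and 58.6 CPM.

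Among 26 other hypoxia response genes, 25 passed the filter, 24 varied beyond counting noise and 9 had a 2-fold range. The median SD was 0.38, and 8 of the 25 were highest in tumour 1 and 10 in tumour 3, where 31.4% and 30.1% of all genes tested had their maximum. The genes that varied most were Angptl4, a secreted inhibitor of lipoprotein lipase, with 42.6, 13.4, 12.2 and 30.9 CPM, and Slc16a3, a lactate exporter, with 39.6, 13.7, 12.5 and 10.8 CPM. The least variable were Fam162a, a mitochondrial protein gene, with 77.4, 83.4, 85.5 and 70.9 CPM, and Mxi1, an antagonist of Myc, with 18.7, 21.1, 22.2 and 23.1 CPM. Mxi1 was the gene of this list whose spread did not pass the test (adjusted p 0.246).

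Adrenomedullin acts through Calcrl with a Ramp partner, and of these 4 genes 3 passed the filter and 2 varied beyond counting noise. The 2 were Calcrl and Ramp1, whereas Ramp2 did not pass the chi-square test (adjusted p 0.0749) and Ramp3 was below the filter. Calcrl had 43.2, 48.1, 107 and 70.1 CPM and Ramp2 10.1, 9.99, 13.7 and 10.1 CPM, both highest in tumour 3. Per kilobase, Calcrl was at 8.86 to 22.0 CPM and Ramp2 at 3.03 to 4.15 CPM, above the 0.215 to 1.18 CPM of the ligand gene Adm in 4 of 4 tumours. Endothelial markers, 8 of 8 tested, summed to 334 CPM in tumour 3 and 243 to 257 CPM in the others. Not all members followed the sum. Cdh5 was highest in tumour 1, with 60.2 CPM against 57.3 CPM in tumour 3. Kdr was highest in tumour 2, with 41.0 CPM against 39.2 CPM in tumour 3. The part of endothelial cells in the Calcrl level was not tested. Of 8 genes that act with Bnip3 in mitophagy, 7 passed the filter, 7 varied beyond counting noise and 0 had a 2-fold range. The extremes were Gabarapl1, with 91.3, 143, 86.1 and 120 CPM, and Sqstm1, an autophagy receptor, with 217, 186, 220 and 213 CPM.

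**Figure D4:**
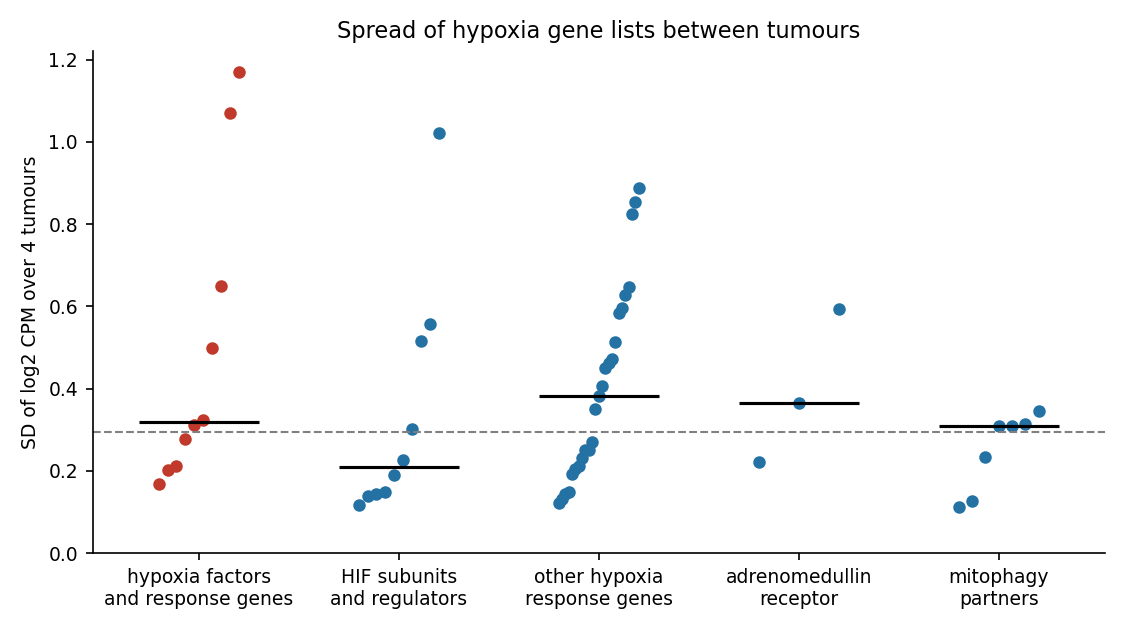
SD of log2 CPM over the 4 tumours for the genes of each list that passed the filter, with a line at the median of the list and a dashed line at the median of all genes tested (0.29). The median is 0.32 for the 10 genes of interest, 0.21 for HIF subunits and regulators and 0.38 for other hypoxia response genes.

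The genes most like Car9 and Adm, the 2 of the 10 genes with the largest SD, were sought among 10261 genes by the root mean square difference of centred log2 CPM over the 4 tumours. For Car9 these were Thbs2 (difference 0.23), Dgat2 (0.24) and Gfpt2 (0.26), each highest in tumour 1 and lowest in tumour 4. Thbs2, a matrix protein gene, had 25.2, 17.0, 10.7 and 5.59 CPM. For Adm they were Nnat (0.18), Rps23 (0.25) and Neat1 (0.29), each lowest in tumour 2. These patterns rest on few counts per tumour, 6 to 48 for Car9 and 3 to 16 for Adm, so counting error limits the likenesses. The genes were also picked as the closest of 10261 over only 4 tumours. Rps23 is a ribosomal protein gene of a kind that has near-identical pseudogenes, so its count is uncertain. Neat1, a nuclear long noncoding RNA, had 1062, 491, 1437 and 1472 CPM.

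Markers of other cells were measured beside these values. Leukocyte markers, 5 of 5 tested, summed to 269 CPM in tumour 3, where Hif1a, Egln1 and Vhl were highest, and to 114 to 156 CPM in the others. Summed macrophage markers (6 of 6 tested) ranged from 191 to 285 CPM and summed neutrophil markers (5 of 5) from 27.5 to 66.6 CPM, each sum highest in tumour 3. Their members did not all follow the sums. C1qa, with 25.7 CPM, and C1qb, with 36.8 CPM, were lowest in tumour 3, while S100a8 was highest in tumour 1 and Retnlg in tumour 4. In tumour 1, where Egln3, Bnip3, Ndrg1 and Car9 were highest, the 4 epithelial markers summed to 3972 CPM against 2488 to 2632 CPM in the others, and 6 proliferation markers to 600.3 CPM against 398 to 482 CPM. Epcam, Krt8 and Krt18 were highest in tumour 1, but Cdh1 was lowest there, with 842 CPM against 846 to 887 CPM. Of the proliferation markers, Cdk1 was highest in tumour 2, with 69.9 CPM against 67.9 CPM in tumour 1. Fibroblast markers (8 of 8) summed to 327 to 569 CPM, and their members went opposite ways, since Col1a1, a collagen gene, was highest in tumour 1, with 125 CPM against 32.2 to 66.9 CPM, and Dcn, the decorin gene, was lowest there, with 37.3 CPM against 57.4 to 138 CPM. Col1a1 and Dcn were chosen after their values were seen. Summed club cell markers (4 of 4 tested) were lowest in tumour 1, with 40.5 CPM against 527 to 881 CPM. In tumours 2 to 4 most of that sum was Scgb1a1, with 457, 736 and 450 CPM. Scgb3a1 was instead lowest in tumour 3, with 3.33 CPM against 4.07 CPM in tumour 1. Summed red blood cell markers (5 of 5) ranged from 32.3 to 110 CPM. Early response genes, which dissociation of tissue is known to raise, summed to 225 to 273 CPM over 11 of 11 genes. No marker listed was at 0 in all tumours, and the part of these cells in the levels of the 10 genes was not tested.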

How the data were processed

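RNA of 4 tumours was sequenced, with 1 library each. The authors trimmed the reads, aligned them to mm10 with HISAT2 and deposited raw counts per Ensembl gene, and the submitters' processing notes name featureCounts 1.4.4. The annotation release and strand setting were not given in the sources used here, so reads of antisense partners may be shared. The authors also deposited a log2 table, described as TMM with voom, whose values for the 10 genes were lower than those computed here by 0.03 to 0.04.

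Combined and single-tumour tables agreed in 156068 of 156068 values. CPM used TMM effective sizes (edgeR 4.0.16, R 4.3.3), and before logs 0.5 was added to counts and 1 to effective sizes. Lengths and positions were from GENCODE M21, and copies were sought with BLAST 2.17.0. The chi-square test, tested on simulated data, covered genes whose mean CPM reached 1. The gene lists and the 10 genes were chosen with earlier results of these data known. All 10 were named, with the extremes of each list by SD at a mean CPM of at least 10, and the 3 genes closest to each of the 2 most variable. Alternatives covered scaling (DESeq2 1.42.0 or totals), filters, the value added, gene length and leaving out tumours. A planned search of protein sequences was not run.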

Additional observations from a re-analysis of the deposited data

Results flagged for a closer look

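Of 41 results tested, 3 had 1 tumour far from the other 3 by Dixon's ratio, which chance passes in about 1 of 20. Ramp2, a partner of the adrenomedullin receptor, had a log2 CPM of 3.78 in tumour 3 and 3.33 to 3.35 in the others. Its spread did not exceed counting noise by the chi-square test (adjusted p 0.0749). The mean log2 CPM of alveolar type 2 markers was 10.37 in tumour 1, against 11.29 to 11.44 elsewhere, although Sftpb and Abca3 were lowest in tumour 3. For endothelial markers tumour 3 had 5.07, against 4.55 to 4.63 elsewhere, although Cdh5 and Kdr were not highest there. Dixon's ratio was passed by 0 of the 10 hypoxia genes.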

How the results depend on the processing

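No comparison between groups, paired or not, was possible because the 4 tumours form 1 group. Differences between genes were paired within tumours. With 4 tumours no permutation test could pass 0.05. Of 99 comparisons of a main result with an alternative, 9 could not change by construction, because scaling a tumour cancels in differences within it. Of the other 90, 84 were scored as the same, since a count stayed within 1.5 times the main count or a difference kept its sign. Some of the 90 could not change either. Without a filter, the 2-fold range, Dixon's ratio and highest tumour of the 10 genes stay as they are, and gene length cannot change Egln3 minus Egln1. The order of the genes was scored only by how many neighbouring pairs held in all tumours, so a changed order could count as the same. The 84 therefore overstate stability. Mean log2 levels likewise cannot differ between the 3 scalings, which share 1 geometric mean, so those 20 comparisons say nothing about stability. With scaling to total count only, 1 of the 10 genes (Vhl, in tumour 3) had a tumour apart, against 0. At a mean CPM of at least 20, 2 of 8 genes had a 2-fold range, and 1 of 1 adrenomedullin receptor genes varied beyond counting noise. Leaving out a tumour gave 2 to 4 genes with a 2-fold range and 1 to 3 varying receptor genes, and in each of these settings fewer genes or tumours entered. Epas1 minus Hif1a lay between -0.78 and -0.31, and Egln3 minus Egln1 between -1.18 and -0.77, over the settings run. The length changed only the first of these, since for Egln3 and for Egln1 the merged exons and the longest transcript are equally long. Of the 10 genes, 7 had a DESeq2 gene-wise dispersion above the median gene. That was scored as the same as 10 genes varying beyond counting noise, although it is an unlike measure. Depth limits Car9 and Adm, with at most 48 and 16 counts.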
